A study of Oryza sativa Japonica Group with 6 samples.

Results

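The CIPK, CBL and CPK genes of rice were examined in plants with more or less of the splicing factor OsSKIPa. The members were all probe sets assigned to exactly 1 gene whose symbol or synonym in the array's gene annotation is CIPK, CBL or CPK followed by a number. This gave 65 of the 57258 probe sets other than controls, covering 51 of the 63 such genes in the gene table. The CIPK kinases had 34 probe sets for 24 genes, the CBL sensors 8 for 7 genes and the CPK kinases 23 for 20 genes. The other 12 genes, among them CIPK15, CIPK3, CIPK9 and CBL1, had no probe set of their own and were not analysed here, and neither was CPK10, for which no probe set was found by name. The symbol CBL2 belongs to 2 genes of the annotation, and the one that also carries the synonym CBL5 is called CBL2/CBL5. Some other names are shared as well. CIPK3 is also a name of the gene called CIPK31 here, CPK11 of that called CPK7, and CPK2 of that called CPK19. RNA was measured on 6 Affymetrix rice arrays, 2 for each of 3 groups. One group overexpressed OsSKIPa (line S58S, selected on hygromycin), one had OsSKIPa suppressed (line S59R, selected on G418), and the third was the untransformed cultivar Zhonghua11. Each transgenic group is therefore 1 line, and the effects of the line and of its selection agent cannot be told apart. All plants were 1 month old and had grown in hydroponic culture after a transfer at 10 days. The labels name both shoots and whole plants as the material.

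CBL proteins (calcineurin B-like) are calcium sensors. They carry EF hands, bind calcium and dock onto a CIPK, a kinase related to yeast Snf1, which is thereby relieved of its autoinhibition and placed at a membrane. CPK proteins join a kinase and a calmodulin-like calcium-binding domain in 1 chain and need no separate sensor. Both systems pass calcium signals to ion transporters, oxidases and transcription factors during salt, drought, cold and nutrient stress, and OsSKIPa is known from work on drought tolerance in rice.

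The deposited signals were linear and on one scale, with array medians from 58.4 to 66. Arrays of one group correlated at 0.971 to 0.973 (Pearson's r of log2 signals across tested probe sets) and arrays of different groups at 0.952 to 0.971. OsSKIPa itself has no probe set under its name here, so that the transgenes could not be checked. The labels state that its level was checked by real-time RT-PCR. The 2 probe sets of the anther markers RTS and C6 were below the array median in at least 1 array of every group. The summed signal of 11 green-leaf probe sets (rbcS, RBCS1, rca and CAB2R) ran from 140030 to 166950 under suppression, 172890 to 172970 in the wild type and 164610 to 186180 under overexpression. Root markers (10 probe sets of 8 genes) summed to 13930 to 15889, 13194 to 17654 and 11157 to 13130 in the same order, and 9 of the 10 were above the median in both arrays of every group. Genes listed here as root markers thus gave signal in material that the labels also call shoots. Whether each of them is confined to roots was not tested. Of 9 tested green-leaf sets 0 were past the threshold under suppression against the wild type, where their median log2 difference was -0.37. For 4 of the 9, all lower, limma's unadjusted p was below 0.05, beside 17.8% of all tested probe sets. Arrays of 6 sets did not overlap (66.7%, beside 48.7% of all). All of these were sets of rca or rbcS. Several sets measure the same gene and are not separate cases. Both CAB2R sets and the brightest rbcS set overlapped the wild type, at -0.075, -0.005 and 0.051. Between the lines 1 set was past the threshold (11.1%, beside 6.56% of all). There 5 sets, all lower under suppression, had an unadjusted p below 0.05, beside 23.1% of all. Of the 10 root sets limma called 0 against the wild type in either line. Its unadjusted p was below 0.05 for 3 under overexpression, all lower, beside 7.11% of all tested probe sets. Under suppression it was below 0.05 for 4, 1 higher and 3 lower, beside 17.8% of all. Between the lines 2 of the 10 root sets passed the threshold (20.0%, beside 6.56% of all), in opposite directions. Both are named after their values were seen. AMT1-2, an ammonium transporter, read 124.6 and 232.0 under overexpression, 1122.1 and 905.9 under suppression and 517.8 and 550.8 in the wild type (-2.54 ± 0.27, overexpression minus suppression, limma adjusted p = 0.00241). IRT1, an iron transporter, read 211.3 and 295.7, 87.9 and 103.3, and 187.4 and 205.9 (1.36 ± 0.25, adjusted p = 0.0198). The ratio of 3′ to 5′ actin signal was 3.43 and 3.73 in the overexpression arrays against 2.75 to 2.89 in the other 4. The groups overlapped in the second actin pair (6.74 to 7.70 under overexpression, 4.83 to 7.14 elsewhere) and in the first GAPDH pair (1.89 to 2.19 and 1.66 to 1.90), and the second GAPDH pair ranged from 1.42 to 35.4, both in the wild type. The 18S rRNA control read 3674 and 3885 under suppression against 4950 to 5450 elsewhere, and a second 18S set read 2841 and 3468 against 3695 to 4208. Whether leaf share, root share or RNA quality had a part in the differences that follow was not tested. In whole tissue, fewer cells of a type and less RNA per cell cannot be told apart.

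The family was well measured. Of the 65 probe sets, 56 (86.2%) lay above their array's median in at least 2 arrays and were tested, against 53.0% of all probe sets. All 6 arrays were above the median for 52 of them (80.0%, against 44.0% of all). The tested ones were 32 CIPK, 7 CBL and 17 CPK probe sets. The 9 untested ones were those of CBL2/CBL5, CIPK30, CPK2, CPK21, CPK22 and CPK29, both sets of CPK6 and the second set of CIPK32. Among these, CIPK30, CPK2, CPK29 and both CPK6 sets were below the median in every array, with mean signals from 6.63 up. At the bright end, 1 set of CIPK7 averaged 5315 and the brightest CPK, CPK19, averaged 4730. The gene called CIPK7 also carries the names TATA and THA4 in the annotation. Whether both of its sets measure the kinase was not tested. The brightest sensor was CBL6 at 3465.

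The clearest change against the wild type was in CIPK2, which rose in the suppression line in 2 of its 3 probe sets. The overexpression line had no member past the threshold against the wild type. Between the lines, 9 of 56 tested probe sets differed (16.1%, beside 6.56% of all tested probe sets). When 1 array was left out fewer did, among the members and among all tested probe sets. In some of these fits the members' share was close to that of all. The 9 sets belonged to 8 genes, of which CBL9, CIPK1, CIPK10, CIPK12 and CPK17 were lower under suppression and CIPK2, CIPK25 and CPK24 higher. CIPK24 and CBL4, the kinase and sensor of the salt pathway, gave no call in any comparison. In the plot of signals by array, the called sets can be followed through the 3 groups.

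**Figure D1:**
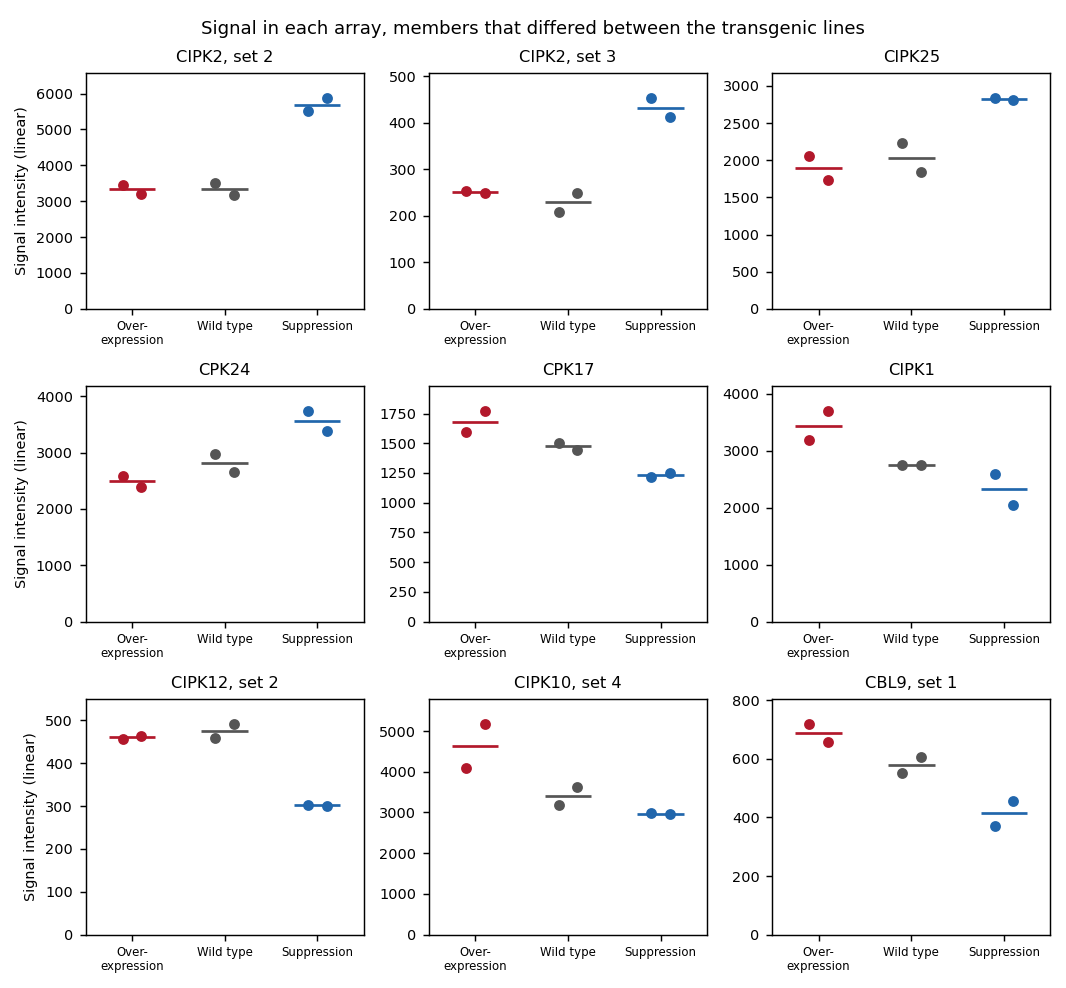
Linear signal intensity (y axis, from 0, own scale in each panel) of the 9 probe sets past the threshold between the lines, in each of the 3 groups (x axis). Points are single arrays and lines are group means. In every panel the overexpression and suppression arrays are separate, with CIPK2 set 2 at 5516.5 and 5864.9 under suppression against 3197.6 to 3499.5 in the other 4 arrays.

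Tests used limma on log2 signals across all 30366 tested probe sets, and p-values were adjusted over all of them with a threshold of 0.05. Log2 differences are given ± the standard error, with 2 arrays in each group. The 2 comparisons with the wild type share its arrays, and the comparison of the lines uses the arrays of both, so that their results are not independent. Where a gene has several probe sets these are numbered in the alphabetical order of their IDs.

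In the suppression line, 2 of the 56 tested members (3.57%) were past the threshold against the wild type, beside 2.3% of all tested probe sets, and both belonged to CIPK2 and were higher (0.955% of all were higher). Unadjusted p was below 0.05 for 15 of the 56 members, 4 higher and 11 lower, beside 17.8% of all tested probe sets. Arrays of the groups did not overlap for 34 members (60.7%), against 48.7% of all probe sets, and in the CIPK class for 24 of 32. The dim set 1 of CIPK2, tested only through arrays of the other groups, is among the 11, the 34 and the 24. The class medians of the log2 difference were -0.12 for CIPK, -0.15 for CBL and -0.02 for CPK, beside -0.02 over all tested probe sets. When 1 array was left out they ran from -0.17 to -0.097, from -0.27 to -0.064 and from -0.083 to 0.062, and with only the brightest set of each gene the CPK value was 0.070. In the overexpression line, 0 of 56 members were past the threshold against the wild type, beside 0.0494% of all tested probe sets. Here 4 members had an unadjusted p below 0.05 (7.11% of all did), and 22 did not overlap (39.3%, against 38.1% of all), and the medians were 0.08, 0.05 and -0.02, beside -0.01 over all. These ran from 0.045 to 0.087, from -0.013 to 0.115 and from -0.10 to 0.024 when 1 array was left out, and with the brightest set of each gene the CIPK value was 0.024 and the CPK value 0.0079. The 2 arrays per group limit the precision. With the variance fitted without its trend on the mean, limma called 0 members in every comparison. Of all tested probe sets it then called 0, 26 and 69 (overexpression, suppression and between the lines).

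**Figure D2:**
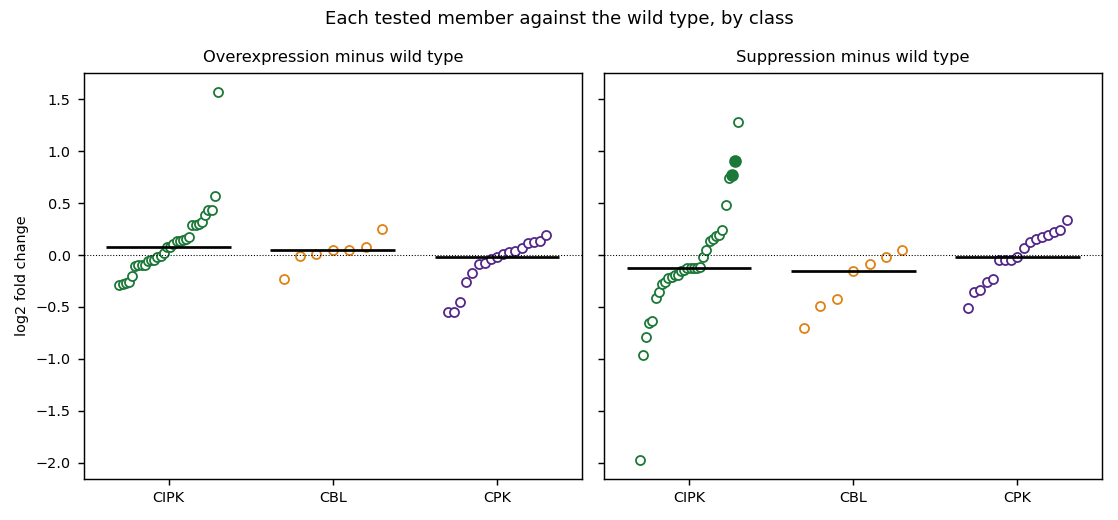
Log2 difference from the wild type (y axis) of each tested probe set by class (x axis; 32 CIPK, 7 CBL and 17 CPK), for overexpression on the left and suppression on the right. Filled points are past the adjusted threshold and lines are class medians. The 2 filled points, at 0.77 and 0.91, are both CIPK2 under suppression, and no point is filled on the left. The lowest CIPK point on the right is the dim set 1 of CIPK2, whose size is not a measured fold. The highest point in each panel is CIPK20, above the array median in only 3 of 6 arrays. Its wild-type arrays read 6.9 and 58.9, so its size is not a measured fold either.

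Directly between the lines, 9 of 56 members (16.1%) were past the threshold, beside 6.56% of all tested probe sets, 5 higher in the overexpression line (3.63% of all) and 4 lower (2.93% of all). By class these were 6 of 32 CIPK, 1 of 7 CBL and 2 of 17 CPK probe sets. Unadjusted p was below 0.05 for 23 of the 56 members, beside 23.1% of all tested probe sets, and 34 did not overlap (60.7%, against 53.5% of all). Both counts include the dim set 1 of CIPK2, tested only through overexpression and wild-type arrays. The median log2 difference, overexpression minus suppression, was 0.25 for CIPK, 0.19 for CBL and -0.11 for CPK, beside 0.01 over all tested probe sets. With only the brightest set of each gene the CIPK value was 0.04 and the CPK value -0.055. Leaving out 1 array gave 0.20 to 0.25, 0.14 to 0.32 and -0.11 to -0.0084, the last of these without the first overexpression array.

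**Figure D3:**
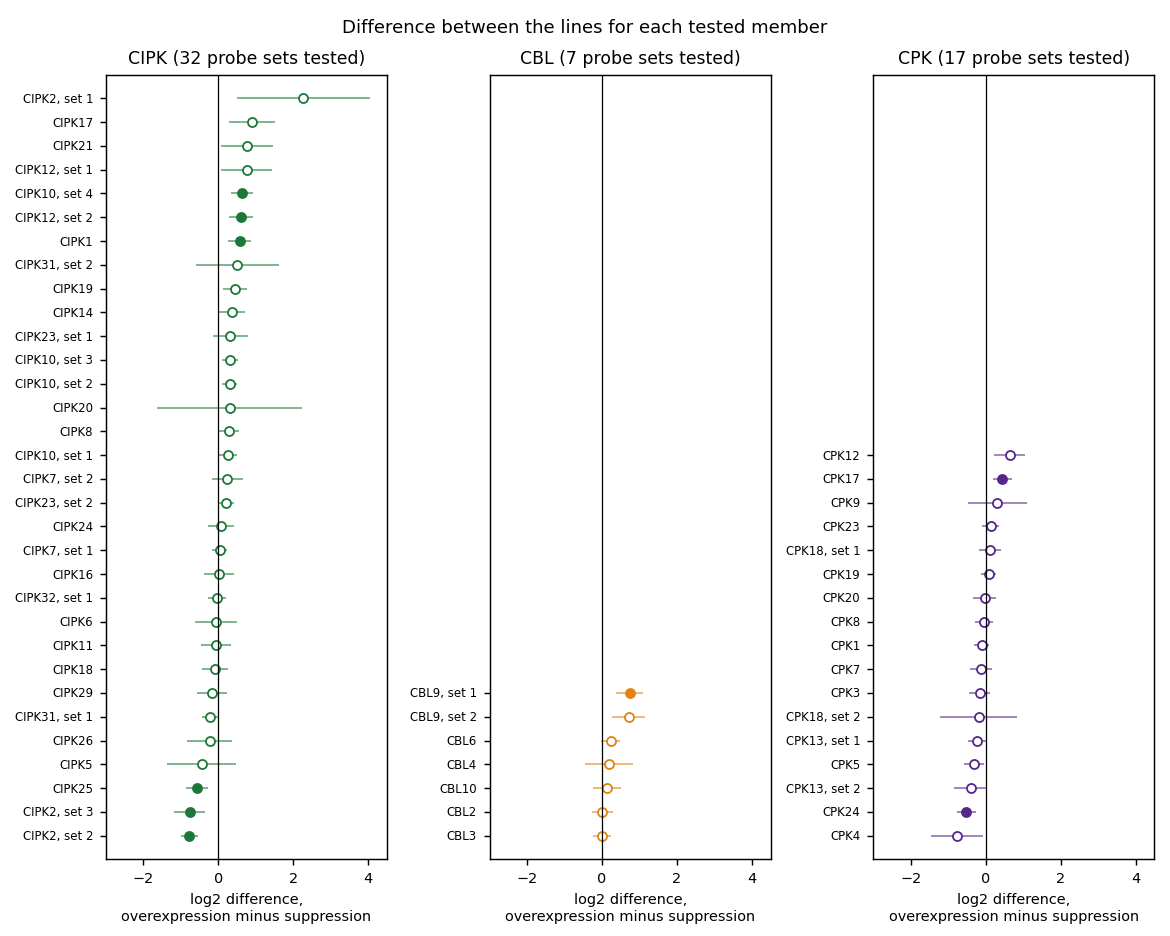
Log2 difference, overexpression minus suppression (x axis), of each tested probe set with its 95% interval, by class and in order of size (y axis). Filled points are past the adjusted threshold. Filled points lie on both sides of 0 among the CIPK and CPK kinases, from -0.77 for CIPK2 set 2 to 0.63 for CIPK10 set 4, and CBL9 set 1 stands at 0.74. The topmost CIPK point is the dim set 1 of CIPK2, whose size is not a measured fold.

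Among the CBL sensors, CBL9 was the one that differed between the lines. Its probe set 1 (gene ID 9269084) read 718.8 and 658.2 under overexpression, 371.7 and 455.9 under suppression and 552.5 and 606.0 in the wild type. The wild type lay between the lines with no overlap. The set was 1.66-fold higher in the overexpression than in the suppression line (log2 0.74 ± 0.15, limma adjusted p = 0.031), and -0.49 ± 0.15 from the wild type under suppression with an adjusted p of 0.153. Probe set 2 read 297.2 and 298.0, 171.4 and 189.8, and 326.2 and 266.1 in the same order of groups. It too was lowest in both suppression arrays, at 0.71 ± 0.19 between the lines (adjusted p = 0.0636) and -0.70 ± 0.19 from the wild type (adjusted p = 0.108). Both IDs end in _x, which in the manufacturer's convention marks probes that can also match other transcripts, so the signal may not be that of CBL9 alone. Leaving out any array but the third suppression replicate ended the call of set 1.

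The other sensors gave no call. CBL6, the brightest, read 3944.6 and 3480.2 under overexpression, 3252.8 and 3075.7 under suppression and 3305.7 and 3729.5 in the wild type. CBL3, whose Arabidopsis counterpart sits at the vacuolar membrane, read 2441.9 and 2138.1, 2324.8 and 2249.0, and 2142.3 and 2275.2. CBL2 read 1165.8 and 1084.2, 1079.9 and 1152.6, and 1064.2 and 1206.4. The groups overlapped for CBL2 and CBL3 in every comparison, and the 95% intervals of the difference between the lines ran from -0.27 to 0.29 for CBL2 and from -0.24 to 0.24 for CBL3. CBL4, the rice SOS3 sensor that acts with CIPK24 in sodium export, was dim. It read 202.2 and 124.2 under overexpression, 142.4 and 134.2 under suppression and 173.9 and 200.0 in the wild type. Both suppression arrays were below both wild-type arrays, at -0.42 ± 0.28 (adjusted p = 0.482). CBL10, which in Arabidopsis serves salt tolerance of the shoot, read 543.3 and 575.9, 482.5 and 533.3, and 475.0 and 611.3, with the wild type spanning both lines.

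Among the CIPK kinases, CIPK2 (gene ID 4344287) gave the 2 calls against the wild type. Probe set 2 read 3462.3 and 3197.6 under overexpression, 5516.5 and 5864.9 under suppression and 3499.5 and 3182.1 in the wild type. The suppression arrays stood far above the other 4, which were alike. The mean signal was 1.70-fold that of the wild type (log2 0.77 ± 0.10, limma adjusted p = 0.0074) and the log2 difference between the lines was -0.77 ± 0.10 (adjusted p = 0.00449). Probe set 3 read 254.2 and 249.4, 452.6 and 411.8, and 208.8 and 249.8 in the same order. Here too the suppression arrays were the highest and the other groups overlapped. The signal was 1.88-fold the wild type under suppression (0.91 ± 0.18, adjusted p = 0.0418) and -0.77 ± 0.18 between the lines (adjusted p = 0.0406). Set 2 carries the _x suffix described for CBL9, and set 3 does not.

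The third probe set of CIPK2, set 1, was dim and lowest under suppression. It read 86.2 and 58.5 under overexpression, 24.6 and 5.3 under suppression and 85.3 and 38.7 in the wild type. Only 2 of its 6 arrays were above the array median, and both suppression arrays were below it. It was tested only because 1 overexpression and 1 wild-type array passed that median, so no fold is given, and it was not past the threshold in any comparison. Leaving out the second wild-type replicate ended the call of set 2 against the wild type (adjusted p = 0.0773). The call of set 2 between the lines stood without any 1 array, whereas both calls of set 3 were lost without any 1 of the 6.

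**Figure D4:**
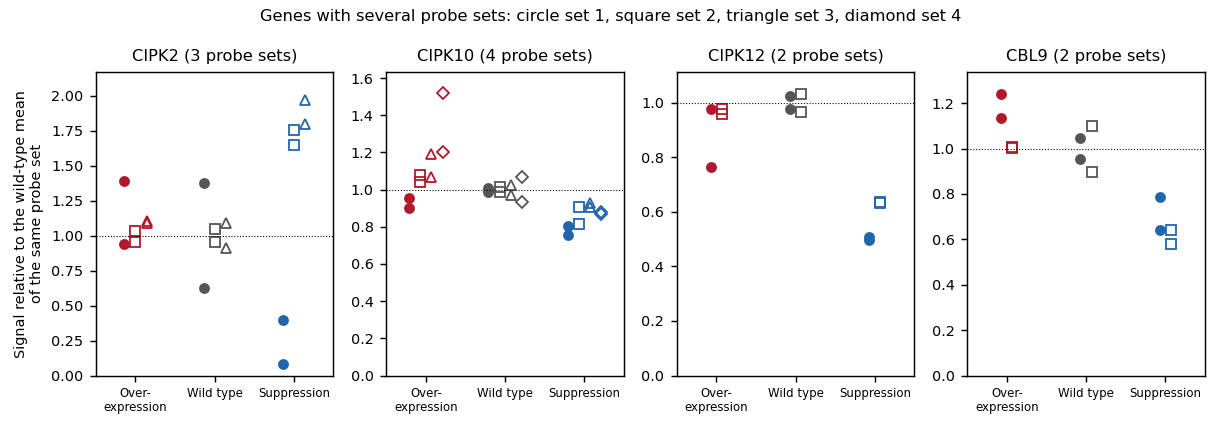
Signal of each array relative to the wild-type mean of the same probe set (y axis, from 0) in the 3 groups (x axis), for the 4 genes with several probe sets of which at least 1 differed between the lines. Symbols separate the probe sets. Under suppression the sets of CIPK10, CIPK12 and CBL9 are all below 1, whereas CIPK2 has 2 sets above 1 and 1 dim set below it.

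CIPK25 (gene ID 4341236) was the other CIPK kinase that was higher in the suppression line. It read 2062.9 and 1731.4 under overexpression, 2830.8 and 2814.6 under suppression and 2228.7 and 1839.5 in the wild type. The suppression arrays were above all others, and the other groups overlapped. The difference between the lines was -0.58 ± 0.13 (limma adjusted p = 0.039). Against the wild type it was 0.48 ± 0.13 with an adjusted p of 0.109. The call was lost without any 1 of the 4 transgenic arrays.

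CIPK10 (gene ID 4332786) has 4 probe sets, and each was lower in both suppression arrays than in both arrays of either other group. Set 4 read 4091.9 and 5167.4 under overexpression, 2987.5 and 2956.6 under suppression and 3180.9 and 3631.6 in the wild type. The overexpression arrays were the highest but stood far apart. This set was 1.56-fold higher in the overexpression than in the suppression line (0.63 ± 0.13, adjusted p = 0.0272), a call lost without the second overexpression array or either suppression array. Set 2, the brightest, read 5320.4 and 5517.9, 4641.7 and 4180.7, and 5055.5 and 5189.4. Set 3 read 4093.9 and 3674.7, 3186.9 and 3109.7, and 3530.6 and 3345.8. In both, the groups were in the same order as in set 4 with no overlap, at 0.30 between the lines and adjusted p-values of 0.0864 and 0.102. Set 1 read 1026.7 and 1086.3, 918.0 and 861.3, and 1127.0 and 1152.0, so that here the wild type was highest. Suppression minus wild type ran from -0.36 to -0.13 over the 4 sets, none past the threshold, and overexpression minus wild type from -0.11 to 0.44.

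CIPK12 (gene ID 4325613), whose overexpression is known to raise drought tolerance in rice, was low in the suppression line in both of its probe sets. Set 2 read 456.5 and 464.8 under overexpression, 301.8 and 301.2 under suppression and 460.2 and 491.3 in the wild type. The suppression arrays were well below the other 4. The difference between the lines was 0.61 ± 0.14 (adjusted p = 0.0456), which was no longer past the threshold after quantile normalization, and suppression minus wild type was -0.65 ± 0.14 with an adjusted p of 0.0613. The dimmer set 1 read 100.8 and 128.8, 66.8 and 65.5, and 128.7 and 135.2, with the same gap at -0.96 ± 0.30 from the wild type (adjusted p = 0.149). The call of set 2 was lost without any 1 of the 6 arrays.

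CIPK1 (gene ID 4325161) read 3178.1 and 3689.2 under overexpression, 2588.9 and 2050.6 under suppression and 2753.6 and 2746.2 in the wild type. The wild-type arrays were nearly equal and lay between the lines. The lines differed by 0.57 ± 0.13 (1.48-fold, adjusted p = 0.0418), a call that stood only without the first suppression array when 1 array was left out. Against the wild type the 2 lines stood at 0.32 ± 0.13 for overexpression (adjusted p = 0.692) and -0.25 ± 0.13 for suppression (adjusted p = 0.363).

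CIPK14, a kinase of rice defence responses to microbial elicitors, read 3531.0 and 2925.7 under overexpression, 2317.4 and 2710.9 under suppression and 4438.0 and 3433.2 in the wild type. The suppression arrays were the lowest. Suppression minus wild type was -0.64 ± 0.15 with an adjusted p of 0.0762. CIPK19 read 1516.3 and 1928.1, 1271.0 and 1244.8, and 1344.2 and 1449.4, and CIPK7 set 2 read 965.6 and 1450.8, 953.1 and 1048.3, and 877.6 and 873.6. In both, the second overexpression array stood far above the first. Their overexpression minus wild type values were 0.29 ± 0.13 and 0.43 ± 0.18 with adjusted p-values of 0.724 and 0.697. CIPK7 set 1, the brightest member of all, read 5332.1 and 5450.1, 5531.9 and 4971.2, and 5219.0 and 5384.5, and its groups were not separated. Both CIPK7 sets belong to the gene that is also named TATA and THA4, so either signal may not be that of the kinase.

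CIPK23 and CIPK24 serve ion transport. CIPK23, which activates the potassium channel AKT1 in rice, read 2485.0 and 2387.1 under overexpression, 2119.1 and 2118.2 under suppression and 2291.6 and 2317.4 in the wild type in its brighter set 2. The order of the groups was that of CIPK1, with differences of 0.20 ± 0.09 between the lines (adjusted p = 0.239). In its set 1 it read 1035.4 and 1506.1, 1020.4 and 979.5, and 1576.8 and 1131.6, and there the overexpression and wild-type arrays overlapped. CIPK24, the rice SOS2 kinase, read 1061.3 and 853.8, 994.6 and 831.7, and 951.8 and 1019.0. These groups overlapped, and the interval of the difference between the lines ran from -0.28 to 0.41. CIPK31, also known as OsCK1 and tied to germination and seedling growth under stress, read 2682.9 and 2952.3, 3147.3 and 3386.8, and 2809.3 and 3042.1 in its brighter set. Suppression was highest, at 0.16 ± 0.10 above the wild type (adjusted p = 0.46). Its dim second set ranged from 53.8 to 141.2 with overlap of all groups.

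Among the CPK kinases, CPK24 and CPK17 differed between the lines in opposite directions. CPK24 (gene ID 4349899), a kinase of the rice cold response, read 2580.1 and 2396.2 under overexpression, 3732.5 and 3376.3 under suppression and 2976.8 and 2653.4 in the wild type. Suppression was highest and overexpression lowest with no overlap. The difference between the lines was -0.51 ± 0.11 (limma adjusted p = 0.0292). Suppression minus wild type was 0.34 ± 0.11 with an adjusted p of 0.151, and the call between the lines was lost without any 1 of the 4 transgenic arrays. CPK17 (gene ID 4342456), also named in work on rice and cold, read 1595.8 and 1768.3, 1218.5 and 1247.9, and 1505.2 and 1440.5. This was the reverse order, at 0.45 ± 0.11 between the lines (adjusted p = 0.0494). The CPK17 call sat at the threshold and was lost after quantile normalization and without any 1 of the 6 arrays.

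Several CPK kinases of known stress roles were not called. CPK4, whose overexpression is known to raise salt and drought tolerance in rice, read 1528.1 and 1162.1 under overexpression, 1833.9 and 2823.8 under suppression and 2662.3 and 1420.0 in the wild type. Its suppression replicates stood far apart, as did its wild-type replicates. Both overexpression arrays were below both suppression arrays, and the difference between the lines of -0.77 ± 0.30 had an adjusted p of 0.175. CPK12, a kinase of salt and blast disease responses, read 337.7 and 382.7, 240.5 and 219.0, and 357.8 and 300.3. Suppression was lowest in both arrays, at 0.64 ± 0.18 between the lines (adjusted p = 0.0735). CPK13, known for tolerance of cold, salt and drought when overexpressed, read 3865.8 and 4032.7, 4873.3 and 4482.7, and 4543.9 and 3884.0 in set 1. In set 2 it read 442.2 and 504.0, 722.9 and 540.9, and 729.6 and 572.2. The overexpression mean was lowest in both sets, with overlap of the wild type in set 1, at -0.24 ± 0.10 and -0.40 ± 0.19 between the lines with adjusted p-values of 0.207 and 0.25.

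The remaining CPK genes singled out by role or brightness gave no call. CPK1 read 3663.4 and 3366.7, 3690.6 and 3882.4, and 3587.3 and 3625.8. CPK19, the brightest, read 5033.2 and 4656.7, 4436.8 and 4742.6, and 4858.1 and 4650.9. CPK7 read 1466.3 and 1717.7, 1770.4 and 1667.1, and 1706.8 and 1459.6. The overexpression and wild-type arrays overlapped in all of these. CPK18, which works with a mitogen-activated protein kinase in rice defence, read 958.4 and 940.6, 840.0 and 909.3, and 973.7 and 842.9 in its brighter set. Its dim second set ranged from 45.6 to 99.5. CPK21, a kinase of abscisic acid and salt responses, was too dim to be tested, with 19.8 and 22.6 under overexpression, 91.5 and 45.9 under suppression and 44.4 and 13.6 in the wild type.

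A graded order was looked for after these values were seen. In 10 of the 56 tested members (17.9%) all 3 groups were separate with the wild type in the middle, beside 9.72% of all tested probe sets. In 9 of these, from 7 genes, overexpression was highest and suppression lowest (16.1%, beside 5.12%). They were CBL9 set 1, CIPK1, CIPK8, CIPK10 sets 2, 3 and 4, CIPK19, CIPK23 set 2 and CPK17. The opposite order was seen in CPK24 (1.79%, beside 4.6%). The 3 sets of CIPK10 measure 1 gene and are not separate cases. CIPK8, known as a nitrate-response kinase in Arabidopsis, read 1347.8 and 1498.1 under overexpression, 1201.6 and 1133.6 under suppression and 1244.6 and 1331.9 in the wild type.

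Probe sets of 1 gene did not always run together. Of the 11 genes with several sets, 9 had 2 or more tested sets. Between the lines the sets shared a sign in 6 of these and were mixed in 3, CIPK2, CIPK31 and CPK18. In each of the mixed genes a dim set opposed a brighter one, and for CIPK2 the mix rests on set 1, whose suppression arrays were both below the array median. Against the wild type the signs were mixed in 4 genes for suppression and in 5 for overexpression. Of the member IDs, 17 carry a suffix (_s, _x or _a) for probes shared by several transcripts.

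Around the family, 42 probe sets of 31 other genes of calcium and SnRK signalling were read out (potassium and calcium transporters, RBOH oxidases, calreticulin and the SAPK and OSK kinases), of which 40 were tested. None passed the threshold in either line against the wild type. There limma's unadjusted p was below 0.05 for 1 of the 40 under overexpression, beside 7.11% of all tested probe sets. Under suppression it was below 0.05 for 14 of the 40, 6 higher and 8 lower, beside 17.8% of all. Between the lines 2 passed, 5.0% beside the 6.56% of all, and both are SAPK kinases of osmotic stress and abscisic acid signalling. SAPK7 read 1248.4 and 1276.7 under overexpression, 2034.1 and 1869.3 under suppression and 1333.4 and 1425.5 in the wild type. SAPK6 read 899.5 and 883.2, 1442.7 and 1681.8, and 1261.0 and 848.6. In both, the suppression arrays were highest, at -0.63 ± 0.11 (adjusted p = 0.016) and -0.80 ± 0.18 (adjusted p = 0.0415) between the lines. AKT1, the target of CIPK23, read 465.3 and 465.8, 721.3 and 472.5, and 538.2 and 543.5, with the suppression arrays on either side of the wild type. The medians of the list were -0.12 for overexpression and 0.06 for suppression against the wild type, and -0.17 between the lines.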

How the data were processed

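RNA of 6 plant samples was hybridised to Affymetrix rice arrays, 2 for each group. Per the labels' protocols, TRIzol extraction was followed by labelling of 6 µg as biotinylated cRNA. The labels call the samples biological replicates, and p-values measure only the spread between these samples. The series record speaks of 3 replicates of S59R and of the wild type, of which 2 each were analysed here. The values deposited by the authors are linear signal intensity for 57381 probe sets. How probes were summarised is not stated in the labels or files. All arrays had the same mean of 500.06 once 2% was trimmed at each end, so they had been scaled before deposit, and a change in total RNA cannot be seen.

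The 123 control probe sets were left out. Gene names came from the platform's annotation, updated by gene ID through a table of assembly ASM3414082v1. Among the remaining probe sets, 22436 were assigned 1 gene and 95 more than 1, and 34727 are unnamed here. Testing required at least 2 of 6 arrays above their own median, which 30366 probe sets met. To each value 3.3 was added, the 10th percentile of all values, before log2 was taken, which understates the change of dim probe sets. limma 3.58.1 in R 4.3.3 fitted 1 mean per group (lmFit, eBayes with trend), with 3 residual and 5.21 prior degrees of freedom, two-sided tests and Benjamini-Hochberg adjustment over all tested probe sets. The procedure was also run on simulated data, with planted changes larger than those of the called members. How well it finds differences of the size called here was thus not tested. Folds are ratios of mean signals.

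Members and gene lists were chosen with earlier results of these data known. Values in every array are given for members that were called, the 5 with the smallest p in each comparison, the 3 brightest of each class, a list of genes with known roles, and genes whose probe sets disagree with a p below 0.05. CIPK8 and the dim set of CIPK12 were added after their values were seen. Alternatives were the pseudocount, quantile normalization, the filter, the variance trend, the arrays in the fit, 1 probe set per gene, each array left out, and the replicate number as a block. The overexpression and wild-type groups share replicate numbers 1 and 2, whereas suppression, with 1 and 3, shares only number 1 with either. The deviations of the first overexpression and wild-type replicates correlated at -0.02, so the numbers were not taken to pair the samples.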

Additional observations from a re-analysis of the deposited data

Results flagged for a closer look

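The effect of overexpression differed from that of suppression, each against the same wild-type arrays, for 9 of 56 tested probe sets by the direct limma comparison of the lines, in which 6.56% of all tested probe sets passed. The differences, overexpression minus suppression on the log2 scale, were 0.74 for CBL9 set 1, 0.63 for CIPK10 set 4, 0.61 for CIPK12 set 2, 0.57 for CIPK1 and 0.45 for CPK17. They were -0.77 for CIPK2 set 2, -0.77 for CIPK2 set 3, -0.58 for CIPK25 and -0.51 for CPK24.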

How the results depend on the processing

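With the pseudocounts of 1 and 16 and the strict filter (all 6 arrays above the median), 2 members were called in suppression against the wild type and 9 between the lines, as reported. Quantile normalization gave 2 and 7. Without a filter the counts were 1 and 4, with only the arrays of the groups compared 1 and 5, and with the variance fitted without its trend 0 and 0. Leaving out 1 array gave 0 to 1 and 1 to 4, with the spread of a lone array taken from the other groups. The count for overexpression against the wild type was 0 under each of these settings and with the replicate number as a block, where 9 rather than 15 of all tested probe sets were called. CIPK2 set 2 between the lines kept its call without any 1 array, and CIPK10 set 4 kept it in 3 of 6 such fits. The causes of these shifts were not tested.

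Some uncalled differences changed sign when 1 array was left out. Their log2 ranges over the 6 fits follow, of which that of the dim CIPK2 set 1 is not a measured fold. For overexpression minus wild type these were CBL2 -0.10 to 0.079, CBL3 -0.046 to 0.15, CBL4 -0.57 to 0.11, CBL6 -0.013 to 0.17, CBL9 set 2 -0.13 to 0.16, CBL10 -0.13 to 0.23, CIPK2 set 1 -0.25 to 0.82, CIPK2 set 2 -0.073 to 0.064, CIPK12 set 2 -0.092 to 0.0013, CIPK23 set 1 -0.37 to 0.17, CIPK24 -0.21 to 0.11, CIPK25 -0.24 to 0.039, CIPK31 set 1 -0.12 to 0.014, CIPK31 set 2 -0.0024 to 0.78, CPK1 -0.099 to 0.023, CPK7 -0.11 to 0.12, CPK13 set 1 -0.20 to 0.024, CPK18 set 1 -0.036 to 0.17 and CPK19 -0.030 to 0.082. For suppression minus wild type they were CBL2 -0.11 to 0.068, CBL10 -0.27 to 0.094, CIPK7 set 1 -0.093 to 0.061, CIPK24 -0.24 to 0.014, CIPK31 set 2 -0.79 to 0.55, CPK4 -0.23 to 0.68, CPK13 set 2 -0.26 to 0.16 and CPK18 set 1 -0.16 to 0.052. Between the lines they were CBL2 -0.041 to 0.063, CBL3 -0.097 to 0.095, CBL4 -0.15 to 0.54, CIPK7 set 1 -0.037 to 0.12, CIPK7 set 2 -0.050 to 0.54, CIPK24 -0.091 to 0.22 and CIPK31 set 2 -0.16 to 1.18, and CBL2 was -0.0051 after quantile normalization.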
